A study of Mus musculus with 4 samples.

Results

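The matrix metalloproteinases (MMPs), the ADAMTS proteases and their tissue inhibitors (TIMPs) were examined in ribosome footprints of cultured mouse myoblasts. Members were the protein-coding genes of the deposited table named Mmp, Adamts or Timp followed by a number. This gave 45 of 55573 genes, of which 22 were MMPs, 19 were ADAMTS genes and 4 were TIMPs. The rule used names only and no measured value, although the gene families were picked with earlier results of these data known.

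Ribosome profiling (Ribo-seq) reads the mRNA pieces covered by ribosomes, so a gene's level reflects both how much of its mRNA is present and how densely it is translated. Primary myoblasts, the cultured descendants of muscle stem cells, came from hind-limb muscle of 3-week-old mice and were kept to day 2 in medium with serum and FGF at 10 µg/ml. The 4 libraries carry the labels WT (WT1, WT2) and eIF5A knockout (KO1, KO2). KO mice were Pax7CreERT2/+;eIF5A f/f and received tamoxifen, so recombination was possible only in cells that expressed Pax7 at that time. Their descendants inherit it even where Pax7 is lost, and cells of other origin in the dish were not targeted. The controls are called WT littermates in the study, which gives their genotype as Pax7CreERT2/+ in one place and as Pax7+/+;eIF5A f/f in another. All cells met cycloheximide at 100 µg/ml, which holds ribosomes in place. Its time is given as 10 min in the treatment protocol and as 1 min in the methods. The study calls the 2 libraries of a group duplicate experiments but does not say whether they came from separate animals or cultures, so the p-values below measure only the spread between these libraries, which may be technical.

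MMPs and ADAMTS proteases are zinc enzymes that cut the proteins around cells. MMPs together open collagens, gelatin, laminin and other matrix proteins, while many ADAMTS enzymes cut proteoglycans or trim procollagens. Both are made as inactive precursors whose propeptide must be removed, and TIMPs block the active enzymes by filling the zinc site. In injured muscle these genes are known for clearing matrix around stem cells and for release of growth factors held there, and fibroblasts and immune cells are well-known sources beside myogenic cells.

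The feature that joins the proteases is the zinc-binding stretch of the catalytic domain, in which 3 histidines hold the metal. All 22 MMPs and 13 of 19 ADAMTS proteins carry it with glycine at the eighth residue. In 5 ADAMTS proteins (Adamts1, Adamts4, Adamts9, Adamts15 and Adamts20) that residue is asparagine, and in Adamts8 neither form was found. Among 21901 mouse proteins the glycine form was found in 69 and the asparagine form in 5. The coding sequences of this site are shown for the proteases with the most reads, because they are the enzymes that most of the values below belong to; capitals mark the histidine codons and the codon of residue 8. Positions are those of the GRCm38 build (transcripts of GENCODE vM21). The sites lie at chr9:7449775-7449807 for Mmp3, chr8:92839279-92839311 for Mmp2 and chr14:54437627-54437659 for Mmp14, each within 1 coding exon on the plus strand. In the ADAMTS genes the codons are split over 2 exons and the span includes an intron, at chr16:85799191-85799545 for Adamts1 (minus strand), chr1:171253210-171253915 for Adamts4 (plus strand) and chr6:92905285-92908493 for Adamts9 (minus strand).
Mmp3: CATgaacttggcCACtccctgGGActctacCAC
Mmp2: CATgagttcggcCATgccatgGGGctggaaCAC
Mmp14: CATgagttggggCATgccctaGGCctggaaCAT
Adamts1: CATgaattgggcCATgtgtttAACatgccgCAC
Adamts4: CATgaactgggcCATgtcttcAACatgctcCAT
Adamts9: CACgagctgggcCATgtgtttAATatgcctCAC

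The cysteine switch is a propeptide motif whose cysteine covers the zinc until activation. It was searched as the exact residues Pro-Arg-Cys-Gly, which were found in 18 of 22 MMPs and in 0 of the 19 ADAMTS proteins. Variant forms were not searched, so the others may carry a switch of another sequence. The furin cleavage motif, Arg-x-Lys-Arg or Arg-x-Arg-Arg, was searched along the whole protein and found in 11 MMPs and 18 ADAMTS proteins. A hit need not lie in the propeptide, and in Mmp19 the only hit (residues 345 to 348) follows the zinc site (213 to 223). The share of all mouse proteins with this pattern was not counted. No TIMP had any of these 3 features. For the most abundant MMPs the switch is encoded at chr9:7447095-7447115 in Mmp3 and chr8:92830765-92830785 in Mmp2, shown with the cysteine codon in capitals.
Mmp3 switch: cccaggTGTggtgttcctgat
Mmp2 switch: ccaagaTGTggcaacccagat

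The libraries held 642429 to 704006 gene-assigned reads, and protein-coding genes took 33.9% to 65.4% of them, the lower shares in both WT libraries. A floor of 3 reads stands for 4.98, 6.37, 3.31 and 3.71 RPKM (reads per kilobase, scaled to a common library size) at 1 kb in WT1, WT2, KO1 and KO2. Eif5a, the targeted gene, stood at 34.9 and 65.2 RPKM in WT1 and WT2 and at 60.3 and 59.4 in KO1 and KO2. The groups overlapped, so the footprints of the whole gene did not separate the labels, and every direction given here is between libraries labelled KO and libraries labelled WT. Differences are KO minus WT on the log2(RPKM + 1) scale, tested with limma across the 11363 genes whose mean RPKM was 1 or more and adjusted by the Benjamini-Hochberg method. An exact permutation test of 2 libraries against 2 cannot give a p under 0.333.

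The members held 1549, 1314, 3609 and 2236 reads in WT1, WT2, KO1 and KO2, or 0.576%, 0.604%, 0.784% and 0.581% of the protein-coding reads. At least 20 reads over the 4 libraries were seen for 10 MMPs, 9 ADAMTS genes and 3 TIMPs. Another 15 members had 1 to 19 reads, and 8 had 0 in every library. The 8 were Mmp1b, Mmp7, Mmp21, Adamts13, Adamts16, Adamts17, Adamts18 and Adamts19, and at this depth that does not show that they are absent. A total of 25 members (14 MMPs, 8 ADAMTS genes and 3 TIMPs) passed the filter and were tested.

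Across the proteases and inhibitors tested, 0 of 25 passed an adjusted p of 0.05, with adjusted p-values from 0.672 to 0.989 in limma, where 0.106% of all genes tested passed. With voom on the recovered reads 0 members passed as well. An unadjusted p under 0.05 was reached by 2 of the 25, where 7.32% of all genes did. The same 2 met the cutoffs that the study set for RNA-seq (2-fold or more and an unadjusted p under 0.05), as did 6.96% of all genes. Both KO libraries lay above both WT libraries for 4 members (16%), where 20.1% of all genes tested did, and below them for 3 (12.0%), where 20.3% did. One of the latter, Adamts10, passed the filter only through the WT libraries. These shares are near or below those of all genes.

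**Figure D1:**
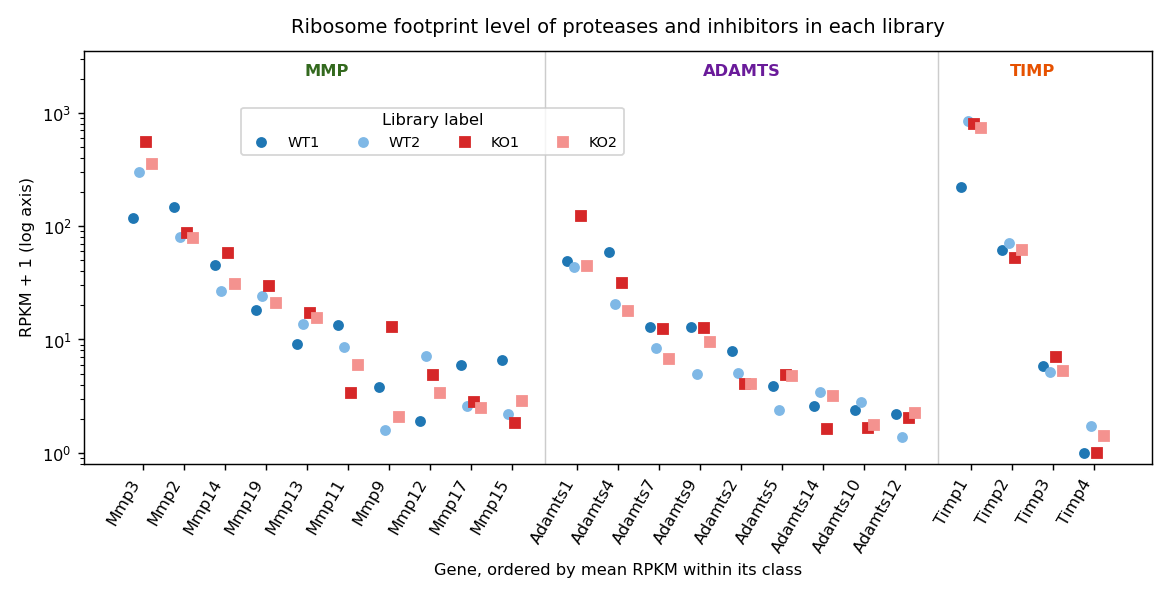
Level of each protease and inhibitor with at least 20 reads over the 4 libraries, and of all 4 TIMPs, as RPKM + 1 on a log axis, with 1 point per library (circles WT labels, squares KO labels). Timp1 and Mmp3 have the highest means (in WT1 Mmp2 is above Mmp3), and WT1 lies below the other 3 libraries in both.

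Among the secreted MMPs, Mmp3 (stromelysin-1, which cuts proteoglycans, laminin and fibronectin and can activate other MMPs) had the highest mean RPKM over the 4 libraries. Its level was 116 RPKM in WT1, 301 in WT2, 557 in KO1 and 349 in KO2, from 126, 255, 910 and 508 reads. Both KO libraries were above both WT libraries, and WT1, where Mmp2 was above Mmp3, was the lowest. The Poisson intervals at 95% were 96.7 to 138 RPKM in WT1 and 265 to 340 in WT2, so the replicates differed by more than counting error. The log2 difference was 1.23 ± 0.66 (SE), with an adjusted p of 0.686 in limma. Without WT1 it was 0.55, and without WT2 it was 1.92. Quantile normalization gave 1.96 with an adjusted p of 0.672. A share of 20.2% of the 28-base stretches of its longest coding sequence also occurs in Mmp10 or in the pseudogenes Gm15242 and Gm15244. Its count therefore depends on how reads with several matches were treated, which the sources used here do not state.

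Mmp2 (gelatinase A, which cuts gelatin and type IV collagen) stood at 146, 80.0, 85.7 and 77.9 RPKM in WT1, WT2, KO1 and KO2. WT1 stood above the other 3, which lay close together, the reverse of its place for Mmp3. The log2 difference was −0.40 ± 0.50 (SE), with an adjusted p of 0.802 in limma, and 0.03 without WT1. Mmp14 (MT1-MMP, the membrane-bound enzyme that activates Mmp2 at the cell surface with the help of Timp2) stood at 44.0 and 25.6 RPKM in WT1 and WT2 and at 57.0 and 29.9 in KO1 and KO2. Each group had 1 high and 1 low library, and the log2 difference was 0.29 ± 0.53 (SE), with an adjusted p of 0.867. It turned to −0.16 without KO1 and to −0.09 without WT2.

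Mmp19, a secreted MMP of broad substrate range, was at 17.4 and 23.4 RPKM in WT1 and WT2 and at 28.4 and 19.97 in KO1 and KO2. Its groups overlapped (log2 difference 0.23 ± 0.42, SE). Of its exon bases, 1001 overlap genes on the opposite strand, and strand use in counting is not stated. Mmp13 (collagenase-3, which opens fibrillar collagen) was at 8.07 and 12.7 RPKM in WT1 and WT2 and at 16.1 and 14.4 in KO1 and KO2, from 13, 16, 39 and 31 reads. Both KO libraries were higher, by a log2 difference of 0.54 ± 0.41 (SE) and an adjusted p of 0.712 in limma.

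Mmp11 (chr10:75923222-75936496, stromelysin-3, which leaves the cell already activated by furin) was the only tested member lower with an unadjusted p under 0.05. Its levels were 12.5 and 7.64 RPKM in WT1 and WT2 against 2.38 and 4.90 in KO1 and KO2, from 21, 10, 6 and 11 reads. Both KO libraries were below both WT libraries. The log2 difference was −1.28 ± 0.46 (SE), with a p of 0.034 that became 0.672 after adjustment in limma. It ranged from −1.68 without KO2 to −0.87 without KO1, and was −0.77 with an unadjusted p of 0.190 in limma when scaled to total reads. Chchd10 on the opposite strand shares 155 of its exon bases.

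Mmp10 (stromelysin-2, a close relative of Mmp3) was the other member with an unadjusted p under 0.05 and is named because of that value. It had 1 read in each WT library and 10 and 4 reads in KO1 and KO2, or 0.963, 1.23, 6.40 and 2.88 RPKM. The WT libraries were under the floor of 3 reads. The log2 difference, which for so few reads depends on the 1 RPKM added, was 1.36 ± 0.50 (SE), with a p of 0.035 that became 0.672 after adjustment in limma. The unadjusted p was 0.145 with voom, and the log2 difference ranged from 0.89 without KO1 to 1.82 without KO2. Of the 28-base stretches of its longest coding sequence, 15.3% are shared with Mmp3, and the difference of the far more abundant Mmp3 has the same sign.

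Mmp9 (gelatinase B, known from leukocytes) was set by 1 library. It stood at 2.81 and 0.6 RPKM in WT1 and WT2, at 11.8 in KO1 and at 1.05 in KO2, from 6, 1, 38 and 3 reads. The log2 difference of 1.05 ± 0.94 (SE) became −0.27 without KO1. Mmp12 (macrophage elastase) was at 0.917 RPKM in WT1, 6.16 in WT2, 3.81 in KO1 and 2.40 in KO2, again with WT1 the lowest. Its log2 difference was 0.13 ± 0.69 (SE) and turned to −0.83 without WT1 and to −0.13 without KO1, and 157 of its exon bases overlap Mmp1b on the opposite strand.

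The membrane-anchored Mmp17 and Mmp15 were highest in WT1 and low elsewhere. Mmp17 stood at 5.01, 1.60, 1.83 and 1.5 RPKM in WT1, WT2, KO1 and KO2, and Mmp15 stood at 5.53, 1.18, 0.817 and 1.84. Their log2 differences were −0.57 ± 0.55 and −0.73 ± 0.67 (SE), and without WT1 they were 0.03 and 0.06. Mmp8, Mmp23 and Mmp28, which also passed the filter, had 16 to 19 reads each and log2 differences of −0.66, 0.10 and 0.03. Of the MMPs not tested, Mmp16, Mmp20, Mmp24, Mmp25 and Mmp27 had 1 to 5 reads in all.

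A cluster of 9 protein-coding MMP genes lies within 427 kb of chromosome 9 (chr9:7272514-7699585), in the order Mmp13, Mmp12, Mmp1b, Mmp3, Mmp10, Mmp8, Mmp27, Mmp20 and Mmp7. Mmp1a lies among them but is classed in the table as a polymorphic pseudogene, not as protein-coding, and is no member. Of these 9, 5 were tested and 4 had a difference above 0, while Mmp8 was below. Mmp3 supplied most of the cluster's reads, which were 146, 302, 988 and 563 in WT1, WT2, KO1 and KO2. The median log2 difference of the 5 was 0.54, and 0.24 after the trend with GC content and length was removed.

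In the ADAMTS family Adamts1 had the highest mean RPKM over the 4 libraries and Adamts4 the next, with the order reversed in WT1. Adamts1, which cuts versican and aggrecan, was at 48.2 and 42.4 RPKM in WT1 and WT2, at 121 in KO1 and at 43.9 in KO2. KO1 stood alone, and KO2 lay between the WT libraries. The log2 difference was 0.68 ± 0.59 (SE), with an adjusted p of 0.729 in limma, and −0.04 without KO1. Its neighbour on chromosome 16, Adamts5 (the main aggrecan-cutting enzyme of mouse cartilage), was at 2.92 and 1.38 RPKM in WT1 and WT2 and at 3.88 and 3.79 in KO1 and KO2, from 19, 7, 38 and 33 reads. Both KO libraries were higher, by a log2 difference of 0.66 ± 0.44 (SE) and an adjusted p of 0.697.

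Adamts4, another aggrecan-cutting enzyme, stood at 57.6, 19.4, 30.7 and 16.7 RPKM in WT1, WT2, KO1 and KO2. Replicate 1 of each group was the higher, and the log2 difference was −0.54 ± 0.64 (SE), with an adjusted p of 0.786 in limma and a value of 0.22 without WT1. Adamts9, which also cuts versican, stood at 11.9, 3.95, 11.5 and 8.47 RPKM, so WT2 was low and the other 3 close. Its log2 difference was 0.45 ± 0.55 (SE) and −0.25 without WT2, and 1805 of its exon bases overlap opposite-strand genes.

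The procollagen-trimming enzymes Adamts2 and Adamts14, which remove the N-terminal propeptide of fibrillar procollagens, were low. Adamts2 stood at 6.93 and 4.09 RPKM in WT1 and WT2 and at 3.07 and 3.05 in KO1 and KO2, so both KO libraries were lower. Its log2 difference was −0.65 ± 0.40 (SE), with an adjusted p of 0.697 in limma. Adamts14 stood at 1.60, 2.45, 0.636 and 2.14 RPKM, with overlapping groups and a log2 difference of −0.40 ± 0.58 (SE), which turned to 0.07 without KO1.

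Adamts7, which cuts cartilage oligomeric matrix protein, stood at 11.9, 7.43, 11.4 and 5.72 RPKM in WT1, WT2, KO1 and KO2, with the replicates of each group further apart than the groups. Its log2 difference was −0.19 ± 0.48 (SE), and 0.11 without WT1 and 0.25 without KO2. Adamts12, a close relative, had 31 reads and a level of 1.22, 0.389, 1.01 and 1.25 RPKM, and its mean was too low to be tested. Adamts10, linked to fibrillin microfibrils, had 7 reads in each WT library and 5 in each KO library. In RPKM that was 1.41 and 1.80 against 0.668 and 0.750, and the gene passed the filter only through the WT libraries, so it had to differ. Opposite-strand genes share 171 exon bases with Adamts4 and 122 with Adamts7. Adamts3, Adamts6, Adamts8, Adamts15 and Adamts20 had 2 to 6 reads in all and were not tested.

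Among the inhibitors Timp1, a broad MMP inhibitor that acts poorly on several membrane-bound MMPs, had the highest RPKM of all members. It stood at 220 RPKM in WT1, 846 in WT2, 791 in KO1 and 728 in KO2, from 118, 354, 637 and 522 reads. WT1 was far below the other 3, which lay close together, with a Poisson interval of 182 to 264 RPKM against 760 to 939 in WT2. The log2 difference was 0.81 ± 0.78 (SE), with an adjusted p of 0.737 in limma. Without WT1 it was −0.16, and without WT2 it was 1.78, so the direction between the labelled groups rests on which WT library is read. Quantile normalization of the 4 libraries gave 1.87 with an adjusted p of 0.672, and scaling to total reads gave 1.43 with 0.355. The gene (chrX:20870166-20874735) lies within Syn1, on the opposite strand, and shares 0 exon bases with it.

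Timp2 (chr11:118301069-118355740), which both inhibits MMPs and links Mmp14 to the Mmp2 precursor, was the steadiest of the abundant members. It stood at 60.5, 70.3, 50.9 and 61.0 RPKM in WT1, WT2, KO1 and KO2. The groups overlapped, and the log2 difference was −0.22 ± 0.43 (SE; 95% interval −1.27 to 0.82), with an adjusted p of 0.877 in limma. That interval still includes a 2-fold fall. Timp3 (chr10:86300372-86349506), the matrix-bound inhibitor that also blocks several ADAMTS and ADAM enzymes, stood at 4.89, 4.17, 5.96 and 4.26 RPKM. Its log2 difference was 0.13 ± 0.37 (SE; 95% interval −0.79 to 1.05), with an adjusted p of 0.919, and it was −0.07 without KO1. Timp4 had 0, 2, 0 and 2 reads, under the floor in each library. Of the exon bases of Timp3, 1733 overlap those of Syn3 on the opposite strand, and of Timp4, 90 overlap Syn2, so part of their count is uncertain.

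RPKM divides by the whole gene length, but footprints lie mostly on coding sequence, and the coding part of these genes differs widely. It was 7.77% of the length for Timp3, 11.4% for Timp4, 16.9% for Timp2 and 69.3% for Timp1, against medians of 51.6% over the MMPs and 44.0% over the ADAMTS genes. Per kilobase of the longest coding sequence, the mean levels over the 4 libraries were 933 for Timp1, 414 for Mmp3, 358 for Timp2, 165 for Mmp2, 134 for Mmp14, 117 for Adamts1, 62.0 for Timp3, 59.0 for Adamts4 and 49.8 for Mmp19. Timp2 thereby moved from the fifth to the third place, and Timp3 from the thirteenth to the seventh. The order of neighbours is not fixed by these libraries. On that scale Timp2 (357, 415, 301 and 360 in WT1, WT2, KO1 and KO2) was above Mmp3 (145, 377, 698 and 438) in WT1 and WT2 and below it in KO1 and KO2. Mmp2 (248, 136, 145 and 132) was above Mmp14 (150, 87.5, 194 and 102) in every library but KO1.

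Summed over members, the proteases reached 508, 561, 962 and 602 RPKM in WT1, WT2, KO1 and KO2, and the TIMPs reached 286, 921, 848 and 793. The ratio of proteases to inhibitors was 1.78 in WT1, 0.609 in WT2, 1.13 in KO1 and 0.758 in KO2. Both extremes were WT libraries, with the KO libraries between them. On the log2 scale the ratio was 0.06 ± 1.09 (SD, n = 2) for the WT labels and −0.11 ± 0.41 (SD, n = 2) for the KO labels, a difference of −0.16 that is far smaller than the spread between the WT libraries. It is a ratio of footprint levels, not of enzyme and inhibitor protein, and no test was run on it. As a share of all member reads, TIMPs took 18.3% (95% Wilson interval 16.5% to 20.3%) in WT1, 38.1% (35.5% to 40.8%) in WT2, 23.9% (22.5% to 25.3%) in KO1 and 33.3% (31.4% to 35.3%) in KO2. These intervals cover counting error only.

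**Figure D2:**
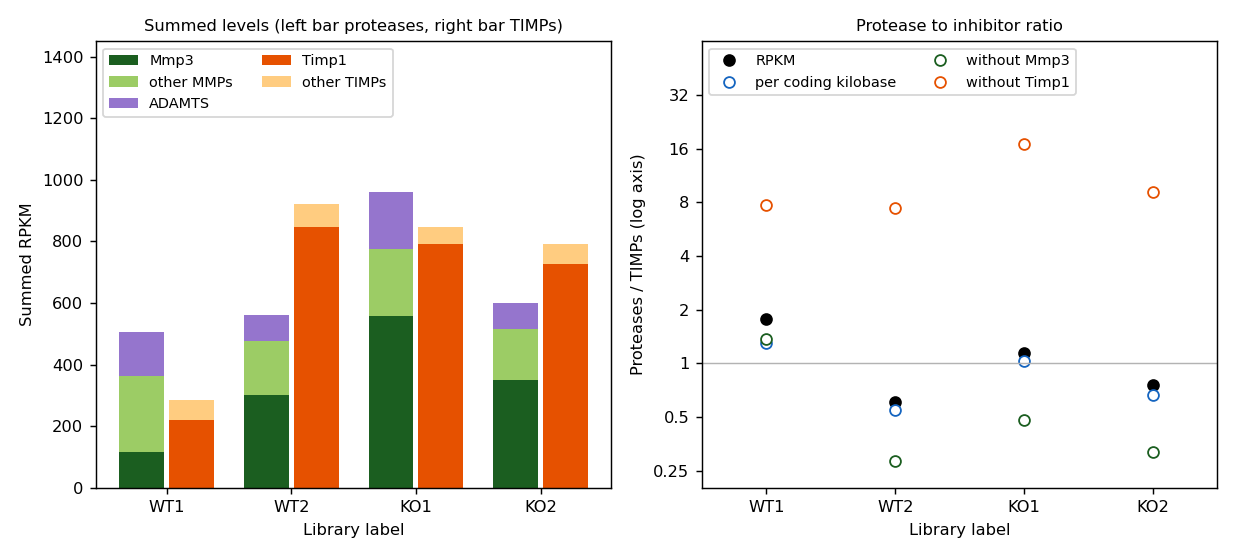
Left, summed RPKM in each library, with proteases (Mmp3, other MMPs, ADAMTS) and TIMPs (Timp1, others) stacked. Right, the protease to inhibitor ratio on a log axis in each library as RPKM, per coding kilobase, without Mmp3 and without Timp1. WT1 has the highest ratio and WT2 the lowest on the first 3 scales, and without Timp1 both KO libraries lie above both WT libraries.

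The ratio was carried by a pair of genes. Timp1 made up 77.1% of the TIMP sum in WT1 and 91.7% to 93.3% in the other 3 libraries. Mmp3 made up 22.9% of the protease sum in WT1, 53.6% in WT2, 57.9% in KO1 and 58.0% in KO2, while Mmp2 was the leading protease of WT1 with 28.8%. Without Timp1 the ratio was 7.77 and 7.46 in WT1 and WT2 and 16.9 and 9.16 in KO1 and KO2, so the groups no longer overlapped. That ratio sets a protease sum holding Mmp3, itself higher in both KO libraries, against the other TIMPs. Among single genes tested, both KO libraries lay above both WT libraries for 20.1%. Without Mmp3 but with Timp1 the ratio was 1.37, 0.282, 0.477 and 0.318 in WT1, WT2, KO1 and KO2, and the groups overlapped again. Per kilobase of coding sequence it was 1.30, 0.546, 1.03 and 0.662. The MMPs outweighed the ADAMTS genes in every library, by 2.51 times in WT1, 5.71 in WT2, 4.19 in KO1 and 5.96 in KO2.

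By class, the median log2 difference was 0.11 over 14 MMPs (−1.28 to 1.36), −0.30 over 8 ADAMTS genes (−0.65 to 0.68) and 0.13 over 3 TIMPs (−0.22 to 0.81). Over all genes tested the median was 0.00, and the range from the 25th to the 75th percentile was −0.52 to 0.47. Signs were mixed in each class. Of the MMPs 9 lay above 0 and 5 below, of the ADAMTS genes 3 above and 5 below, and of the TIMPs 2 above and 1 below. Adamts10, among the ADAMTS genes below 0, passed the filter only through the WT libraries. Medians changed sign with the library left out. The MMP median was −0.14 without KO1, the ADAMTS median was 0.17 without WT1 and 0.06 without KO2, and the TIMP median was −0.16 without WT1 and −0.07 without KO1.

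**Figure D3:**
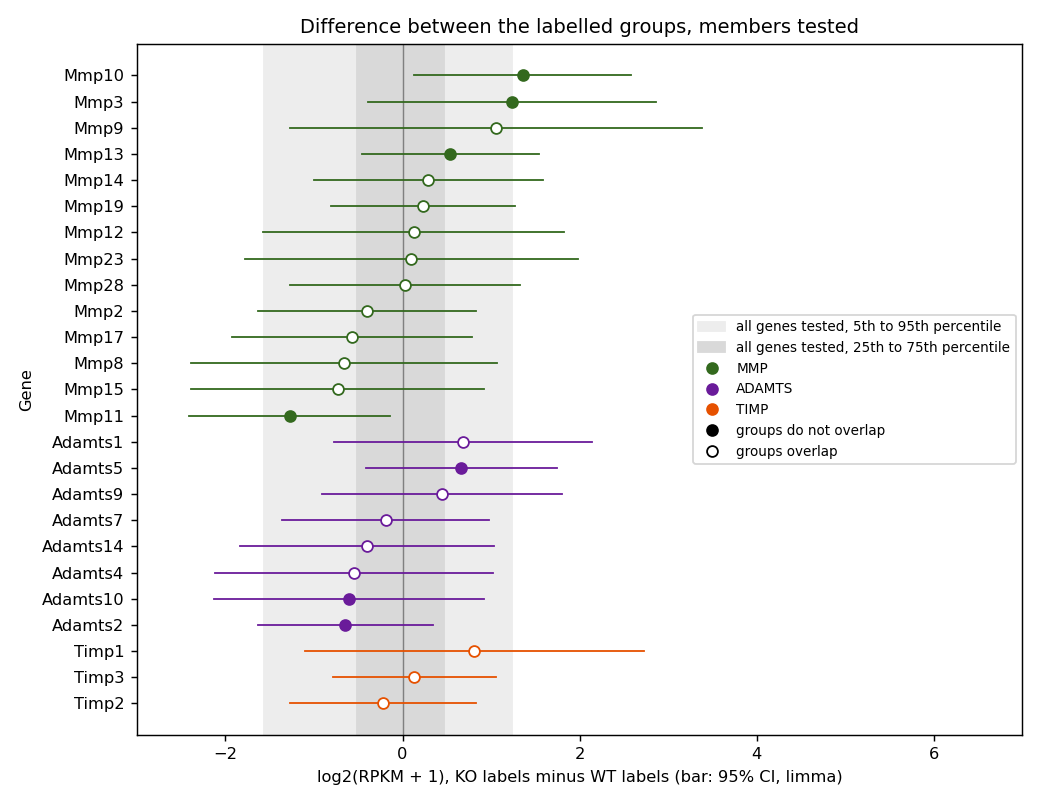
Log2 difference of RPKM + 1, KO labels minus WT labels, for the 25 members tested, with 95% intervals from limma (points filled where the groups do not overlap). Grey bands give the spread of all genes tested, and only the intervals of Mmp10 and Mmp11 leave out 0.

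The members differ in base composition, and in these libraries the group difference moved with it. Over the 25 members tested the difference was lower at higher coding GC content (Spearman rho −0.55, Pearson r −0.51). Over all protein-coding genes tested rho was −0.36. After removal of the trend with GC and length, Spearman rho over the members was −0.27. These points are genes of the same 4 libraries and are no replicates. The GC-poor Mmp3 (46.3% GC), Mmp10 (47.3%) and Mmp13 (45.9%) lay above 0, and the GC-rich Mmp11 (59.3%) and Adamts2 (59.96%) lay below. Others ran against this order, with the GC-poor Mmp8 (45.6%) at −0.66 and the GC-rich Mmp9 (58.4%) at 1.05. Once the trend with GC and length over all genes was taken out, Mmp3 was at 0.95, Mmp13 at 0.24, Mmp10 at 1.10, Mmp11 at −1.01, Adamts2 at −0.25, Adamts5 at 0.76, Mmp8 at −0.98 and Mmp9 at 1.32. The part of base composition in these differences was not tested further.

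**Figure D4:**
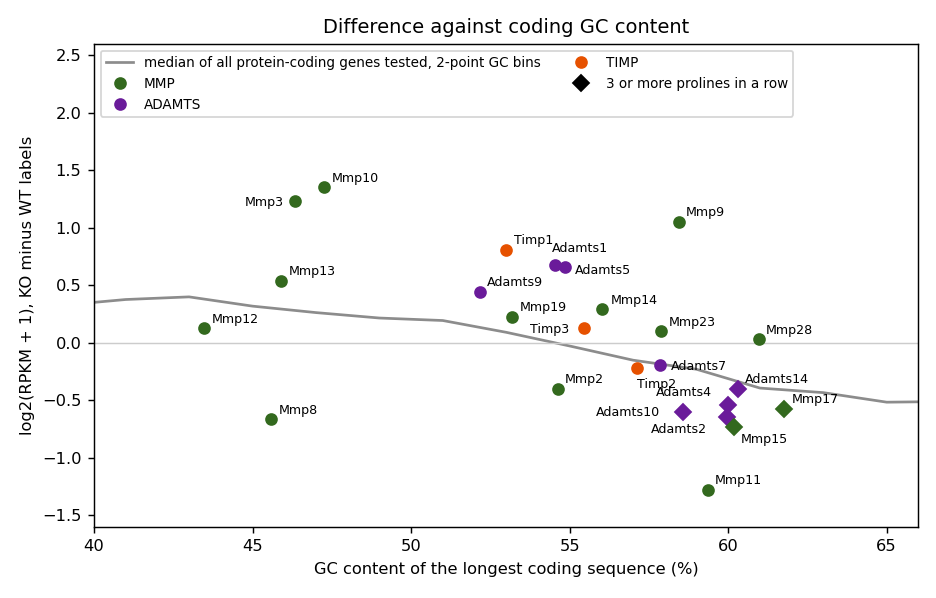
Log2 difference (KO minus WT labels) of the 25 members tested against the GC content of their longest coding sequence, with the median of all protein-coding genes tested as a grey line (2-point bins). Diamonds are members with 3 or more prolines in a row, which all lie below 0 and all at a GC content of 58.6% or more.

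Runs of proline slow ribosomes, and eIF5A is known for easing their translation. A run of at least 3 prolines was found in 12 of 19 ADAMTS proteins, 4 of 22 MMPs and 0 of 4 TIMPs, against 19.9% of all mouse proteins. Adamts2 and Adamts8 have the longest, with 4 prolines. In Adamts2 the runs that stand closest together are encoded at chr11:50602227-50602238 and chr11:50602251-50602262 on the plus strand, shown here because the table of footprints per gene cannot say whether ribosomes gather on them.
Adamts2 residues 22 to 25: CCGCCGCCGCCT
Adamts2 residues 30 to 33: CCGCCGCCGCCC

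Of the members with such a run 6 were tested (Adamts2, Adamts4, Adamts10, Adamts14, Mmp15 and Mmp17; Adamts10 passed the filter only through the WT libraries), and all had a difference below 0, from −0.73 to −0.40 with a median of −0.59. The 19 tested without one had a median of 0.23, with 5 below 0. Over all protein-coding genes tested the medians were −0.13 for 2540 genes with a run, 58.4% of them below 0, and 0.12 for 7329 without, 42.9% of them below 0. The 6 members were also GC-rich, with a median of 60.1% against 54.6%, and after removal of the GC and length trend their median was −0.21 against 0.24, with Adamts14 turned to 0.014, and over all genes it was −0.04 against 0.04. No member of the 6 passed an adjusted p of 0.05, and for Adamts4, Mmp15, Mmp17 and Adamts14 the sign turned when 1 library was left out.

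Other genes that control these enzymes were read from lists. Of 17 activators and regulators 13 were tested, 11 lay above 0 and 2 below, and 0 passed an adjusted p of 0.05. Tfpi2 and Pcsk5 passed the filter only through the KO libraries and Pcsk7 only through the WT libraries, so the filter favoured the side they fell on. The most abundant were Thbs1 (thrombospondin-1, which binds MMPs and their clearance receptor) at 116, 76.9, 267 and 84.6 RPKM in WT1, WT2, KO1 and KO2, Bsg (an inducer of MMP expression) at 80.5, 116, 120 and 90.1, and Lrp1 (the clearance receptor itself) at 125, 46.6, 124 and 49.4. In none of these did the groups separate, and Thbs1 had the same high KO1 as Adamts1. Over the 13 tested, both KO libraries lay above both WT libraries for 4, Tfpi2 among them (20.1% of all genes tested did). Both lay below for 1 (20.3% of all genes did), Furin, at 28.6, 11.8, 7.57 and 11.1 RPKM in WT1, WT2, KO1 and KO2. Tfpi2, a matrix-associated protease inhibitor, was the single gene of this list with an unadjusted p under 0.05 and is named for that. It had 0 reads in both WT libraries and 6 and 7 in KO1 and KO2, so it passed the filter only through the libraries where it is high and had to differ, and nothing is read from its p.

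The plasminogen activator system, which makes plasmin and through it activates several MMP precursors, had 6 of 8 genes tested. All 6 lay above 0, and 0 passed an adjusted p of 0.05 or had an unadjusted p under 0.05 in limma. Plaur, the urokinase receptor, stood at 10.1, 84.3, 52.7 and 67.2 RPKM in WT1, WT2, KO1 and KO2, and Plau, urokinase itself, at 23.1, 43.0, 66.6 and 56.0. Both genes were lowest in WT1, as Timp1 and Mmp3 were, while both KO libraries lay above both WT libraries for Plau but not for Plaur.

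In the ADAM family, the membrane-bound sheddases related to ADAMTS, 7 of 11 genes were tested, with 3 above 0, 4 below and 0 with an unadjusted p under 0.05. Adam9 stood at 12.9, 18.1, 26.3 and 15.6 RPKM, Adam10 at 10.1, 4.75, 15.7 and 11.1 and Adam17 at 10.2, 8.90, 10.3 and 6.92, in WT1, WT2, KO1 and KO2. Only Adam10 had both KO libraries above both WT libraries among these 3. The ADAMTS-like proteins, which share the ancillary domains without the protease, had 4 of 7 genes tested, 2 above 0 and 2 below. Adamtsl4 stood at 4.35, 5.56, 3.94 and 3.54 RPKM, Adamtsl1 at 2.99, 1.83, 4.58 and 3.49 and Adamtsl3 at 0, 1.64, 4.70 and 3.36. Adamtsl3, the only one of these with an unadjusted p under 0.05, also passed the filter only through the KO libraries, and nothing is read from its p. Adamtsl5, which lay below 0, passed only through the WT libraries, so the filter favoured the side each fell on. No ADAM or ADAMTS-like gene passed an adjusted p of 0.05.

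The dishes held signal from several cell types, and their markers moved with the libraries. Myoblast markers (9 genes) summed to 329, 196, 116 and 129 RPKM in WT1, WT2, KO1 and KO2, with Myod1 at 140, 117, 48.6 and 79.8. Of the 8 tested, 5 had both KO libraries below both WT libraries (20.3% of all genes tested did) and 1, Vcam1, had both above (20.1% did). One of the 5, Myf5, passed the filter only through the WT libraries. Myog, a differentiation regulator, stood at 91.0 RPKM in WT1, 4.26 in WT2, 0.737 in KO1 and 1.66 in KO2, so WT1, the library low in Timp1 and Mmp3, was the one high in Myog. Fibroblast markers (10 genes) summed to 627, 419, 1052 and 499 RPKM, with the highest sum in KO1, the library high in Adamts1, Mmp14 and Mmp3. The next highest fibroblast sum was in WT1, the library lowest in Mmp3. Of these 10, 4 had both KO libraries above both WT libraries and 1, Thy1, had both below. Endothelial markers (8 genes) summed to 229, 336, 343 and 411 RPKM, and 5 of the 8 had both KO libraries above both WT libraries. Of 4 smooth muscle and mural markers tested, 2 had both KO libraries below. Smooth muscle and mural markers (7 genes, with Tagln listed at 0 in every library) summed to 156, 122, 99.7 and 109, and macrophage and neutrophil markers (10 genes, with Itgam at 0 in every library) to 34.1, 61.5, 47.3 and 29.6. Of the last list 6 were tested, of which 1, Adgre1, had both KO libraries above both WT libraries and 2, Cd68 and Lyz2, had both below. The part of these cells in the protease and inhibitor levels was not tested, and in such bulk samples fewer cells of a type and less footprint RNA per cell cannot be told apart.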

How the data were processed

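Ribo-seq was performed by the authors on 2 WT and 2 KO libraries. Per the methods and the submitters' processing notes, rRNA and tRNA reads were removed, the rest were aligned with TopHat2 to the mouse genome (mm10, also called GRCm38) and HTSeq counted them on Ensembl gene models; the treatment of multiple matches and strand is not given in the sources used here. The values deposited by the authors are RPKM, with the gene length beside them. Multiplying by length recovered whole reads for 100% of values (within 0.01). The implied denominators were 602863, 471136, 906990 and 807705 reads for WT1, WT2, KO1 and KO2, each the geometric mean of the totals times a median-of-ratios size factor, so a change common to most genes is not visible. The recovered totals were 648386, 642429, 704006 and 650210 reads, and intervals and floors from them cover counting error only.

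The main test was limma 3.58.1 (R 4.3.3, eBayes with a trend) on log2(RPKM + 1), with group as the only term, for genes whose mean RPKM was 1 or more. Folds on this scale understate the change of low genes. The script was tested on simulated data with set fold changes and an assumed spread between replicates. That checks the code and says nothing of how firm the differences in these libraries are. Coding sequences, GC content and motifs came from GENCODE vM21 (GRCm38), in which all 45 members were found with the same start and end, and motifs were searched in the longest coding sequence of each gene. All 4 TIMPs and each protease with at least 20 reads in all were described library by library. From each list of related genes the 3 with the highest mean RPKM were named, except 1 that is not reported here, and Eif5a served to check the labels. Members, lists and rules were chosen with earlier results of these data known. Alternatives were another pseudocount, other filters, scaling to total reads, protein-coding genes alone, quantile normalization, voom on the recovered reads, removal of the GC and length trend, a replicate block, and each library left out. Replicate numbers were not shown to pair the libraries. The count of columns left unused because they matched no sample was 0.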

Additional observations from a re-analysis of the deposited data

How the results depend on the processing

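No member passed an adjusted p of 0.05 under any alternative, and the lowest adjusted p of the 22 genes followed was 0.289. Over all genes, the 12 calls (adjusted p under 0.05) became 0 with a pseudocount of 0.1 (808 at an unadjusted p under 0.05), no filter (936), a mean RPKM of at least 5 (505), scaling to total reads (1854), protein-coding genes alone (835) and removal of the GC and length trend (714), 79 with voom on recovered reads, 12 with quantile normalization, and 0 with each library left out (430 to 1600). With the replicate block the count was 0 (827 at an unadjusted p under 0.05), and 34 with the block and that trend removed together. Replicate numbers did not deviate together (r = 0.06 between WT1 minus WT2 and KO1 minus KO2), and the block changed no call among the members. The 791 genes at least 2-fold with an unadjusted p under 0.05 became 469 with a mean RPKM of at least 5, 1747 with scaling to total reads and 1224 with voom, and ranged from 422 to 1459 with 1 library left out. The cause of these shifts was not tested.

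The log2 protease to inhibitor ratio (KO minus WT) was 0.71 without Timp1 and ranged from −0.94 to 0.61 with 1 library left out; the other alternatives moved it by less than the spread between replicates. Scaling to total reads raised the median of all genes by 0.47, the MMP median to 0.57 and the TIMP median to 0.64. The ADAMTS median (−0.30) turned to 0.20 there, to 0.17 with no filter, to 0.13 at a mean RPKM of at least 5 and to 0.07 on removal of the GC and length trend. With 1 library left out the TIMP median ranged from −0.16 to 0.33. That scaling put Mmp2 at 0.21, Timp2 at 0.38, Adamts4 at 0.044 and Adamts7 at 0.36, all below the shift of the median. Removal of the GC and length trend, blocked or not, put Adamts7 at 0.13, Mmp12 at −0.24 and Adamts14 at 0.014.

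Of 22 genes, 14 changed sign with some library left out. Their ranges were −0.16 to 1.78 for Timp1, −0.83 to 0.030 for Mmp2, −0.042 to 1.40 for Adamts1, −0.16 to 0.74 for Mmp14, −1.30 to 0.22 for Adamts4, −0.014 to 0.47 for Mmp19, −0.63 to 0.25 for Adamts7, −0.25 to 1.14 for Adamts9, −0.070 to 0.33 for Timp3, −0.27 to 2.38 for Mmp9, −0.83 to 1.08 for Mmp12, −1.18 to 0.031 for Mmp17, −1.53 to 0.058 for Mmp15 and −0.87 to 0.071 for Adamts14. Of the other 8, Timp2 kept its sign, and in Mmp3, Mmp10, Mmp11, Mmp13, Adamts2, Adamts5 and Adamts10 the groups do not overlap, so leaving out a library cannot turn the sign. Values that rest on under 20 reads in all, such as that of Mmp10, are the least certain.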
